A study of Homo sapiens with 16 samples.

Results

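The genes described here are 2 carboxylesterases and 7 efflux pumps that handle irinotecan: CES1, CES2, ABCB1, ABCC1, ABCC2, ABCC3, ABCC4, ABCC5 and ABCG2. They were taken by symbol, 9 of the 58243 genes in the deposited count table, and their levels were read in all 16 libraries. The libraries are poly(A) RNA of the established glioblastoma line U-251 MG, grown from a human tumour, and the labels name no genetic change in it. All 4 groups were treated for 48 h from 24 h after seeding. They received DMSO (the vehicle), 0.06 µM simvastatin, 0.6 µM irinotecan, or 0.06 µM simvastatin with 0.6 µM irinotecan (the combination), with 4 libraries each. Simvastatin is a statin, which blocks cholesterol synthesis. Irinotecan is a camptothecin prodrug whose active form traps topoisomerase I on DNA. The study asked which pathways and genes the drugs affect alone and together in this 1 cell line. No label says that replicates were separate cultures, and p-values then measure only the spread between these samples, which may be technical.

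Irinotecan is nearly inactive until an esterase removes its bulky side chain and releases the active metabolite, SN-38. The carboxylesterases CES1 and CES2 do this in liver and gut, and CES2 is the more efficient of them on irinotecan. ABC transporters are membrane pumps that use ATP to move drugs out of the cell: ABCB1 is P-glycoprotein, the ABCC genes encode multidrug resistance proteins, and ABCG2 is breast cancer resistance protein. Irinotecan, SN-38 and the glucuronide of SN-38 are exported to different extents by several of these pumps. In brain, ABCB1 and ABCG2 are best known from the endothelium of the blood-brain barrier, while tumour cells often carry pumps of the ABCC family.

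ABCC5 and ABCB1 were the members called higher in a treated group than in DMSO, and sequence upstream of their RefSeq starts (GRCh38.p14) is shown so that the start regions can be compared. The RefSeq promoter table held windows for 6 of the 9 members, and ABCC1, ABCC3 and CES1 were without one. Each run is written 5′ to 3′ on the minus strand and ends where a GENCODE 29 exon begins. The ABCC5 run and the first ABCB1 run lie just outside the annotated genes, and the second ABCB1 run lies in an intron of the longer ABCB1 transcripts. Capitals mark a match to a searched motif on either strand.
ABCC5, chr3:184018016-184018134: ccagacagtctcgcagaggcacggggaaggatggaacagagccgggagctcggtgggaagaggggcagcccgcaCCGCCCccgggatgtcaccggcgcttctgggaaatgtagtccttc
ABCB1 upstream start, chr7:87713324-87713545: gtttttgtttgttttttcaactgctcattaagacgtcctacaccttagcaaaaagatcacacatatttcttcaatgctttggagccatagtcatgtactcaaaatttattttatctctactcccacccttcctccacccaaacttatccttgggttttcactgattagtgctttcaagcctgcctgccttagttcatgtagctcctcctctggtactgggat
ABCB1 downstream start, chr7:87601079-87601134: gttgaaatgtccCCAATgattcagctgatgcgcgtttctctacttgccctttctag
Of the motifs searched in windows of 300 bases, the GC box GGGCGG was in 44.95% of 35116 RefSeq windows, CCAAT in 34.61%, the hypoxia core ACGTG in 21.41% and the antioxidant core TGACNNNGC in 13.35%. No matches overlapped in the windows shown. The ABCC5 window held 1 GC box, in a sequence with 65.7% G and C over the 300 bases. The window of the upstream ABCB1 start had none of the 4 motifs and 37.7% G and C. That of the downstream ABCB1 start had 2 CCAAT matches, 1 of them in the printed bases, and 55.3% G and C. These matches describe letters only.

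Total counts per library were 24159673 to 32318888, and 3 counts corresponded to 0.0906 to 0.124 CPM, counts scaled to a common library size. Levels are given in CPM scaled by the TMM factors of edgeR, and levels that compare genes with each other are given per kb of exon sequence. Of 9 glial and glioblastoma markers, 7 had a mean of at least 1 CPM over the 16 libraries, with AQP4 and OLIG2 below it. No marker of hepatocytes (6 genes), brain endothelium (5), epithelium (5) or immune cells (4) reached that mean, while 3 of 4 neuronal markers did. CES1, ABCG2 and ABCB1 had means under 1 CPM in every group and were hardly measured.

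Per kb of exon, the order of the levels was the same in all 4 groups: ABCC3, ABCC1, CES2, ABCC4, ABCC5, ABCC2, ABCG2, ABCB1 and last CES1, which had none. In DMSO the mean levels were 29.7 ± 1.1 CPM per kb for ABCC3, 18.8 ± 1.1 for ABCC1, 7.37 ± 0.30 for CES2, 3.74 ± 0.29 for ABCC4 and 3.20 ± 0.33 for ABCC5 (SD, n = 4). The remaining pumps lay far lower in DMSO, at 0.157 ± 0.051 CPM per kb for ABCC2, 0.098 ± 0.017 for ABCG2 and 0.048 ± 0.028 for ABCB1. Some neighbours in this order were not separate: the libraries of ABCC4 and ABCC5 overlapped in DMSO, simvastatin and irinotecan, those of ABCC2 and ABCG2 in DMSO, irinotecan and the combination, and those of ABCG2 and ABCB1 in the combination. The canalicular pump ABCC2 and the blood-brain barrier pumps ABCG2 and ABCB1 thus formed a low set below the other 4 pumps in every library.

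**Figure D1:**
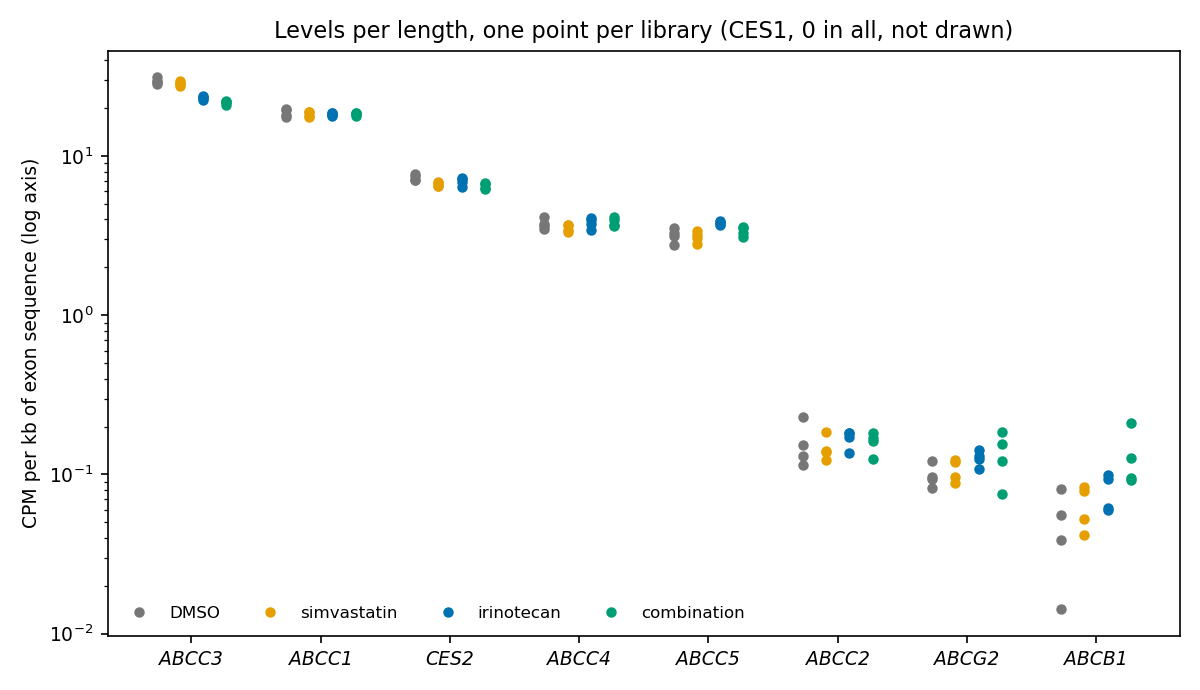
Levels of 8 genes in CPM per kb of exon sequence (log axis), 1 point per library, coloured by group. ABCC3 and ABCC1 lie highest in every group, and ABCC2, ABCG2 and ABCB1 lie below all other genes drawn. CES1 had no count and is not drawn.

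CES1, the main carboxylesterase of liver, had 0 counts in all 16 libraries (ENSG00000198848, GRCh38 chromosome 16, 55802851 to 55833337). At these depths a count of 0 allows up to 0.0906 to 0.124 CPM per library. Its copies CES1P1 and CES1P2, with which it shares sequence, also had no counts. How reads shared between such copies were counted is not known, so the bound covers only reads that were assigned to CES1. Of the 6 hepatocyte markers, TTR had none in any library. SERPINA1, for alpha-1 antitrypsin, stayed under 1 CPM on average in each group but was called higher with irinotecan and with the combination (log2 fold changes 1.34 ± 0.29 and 1.31 ± 0.30, edgeR adjusted p = 0.000867 and 0.00112). The other hepatocyte markers were not tested. With DMSO, irinotecan and the combination, ALB had means of 0.095, 0.090 and 0.048 CPM, and APOA1 had 0.083, 0.050 and 0.058. HNF4A had 0.019, 0.034 and 0.077 CPM, and APOB had 0.0099, 0.0076 and 0.0098. These means lay below the level of 3 counts and had no common direction. CES1 did not pass the filter on low counts, so 8 of the 9 members were tested.

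CES2 (ENSG00000172831, chromosome 16, 66934444 to 66945096), the carboxylesterase of gut and of many tumours, was the esterase that was measured, with 857 to 1275 counts per library. In DMSO its levels were 40.1, 38.0, 41.3 and 38.1 CPM in replicates 1 to 4. With simvastatin they were 36.6, 36.4, 34.8 and 34.6 CPM. With irinotecan they were 37.0, 38.5, 38.8 and 34.2 CPM, and with the combination 36.2, 33.8, 33.2 and 35.6 CPM. All DMSO libraries lay above all libraries with simvastatin and with the combination, while the irinotecan libraries reached into the DMSO range. CES2 fell with the combination, by 0.18 ± 0.05 on the log2 scale (SE, edgeR quasi-likelihood test, adjusted p = 0.00666), to 0.881 of the DMSO level. The log2 fold change was -0.15 ± 0.05 with simvastatin (edgeR adjusted p = 0.0914) and -0.08 ± 0.05 with irinotecan (edgeR adjusted p = 0.256), and neither was called. The fall with the combination was not called when libraries were scaled by their totals alone (-0.13, edgeR adjusted p = 0.0563). CES2 exons share 147 bases with AC009084.1, which had 3 counts over all libraries, and 437 bases with AC009084.3, which had 0.

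ABCC3 (MRP3, ENSG00000108846, chromosome 17, 50634777 to 50692252), a pump of glucuronide conjugates, had the highest level per length and fell in both groups that received irinotecan. In replicates 1 to 4 its levels were 281, 301, 275 and 286 CPM with DMSO and 284, 276, 271 and 263 CPM with simvastatin. They were 218, 229, 222 and 225 CPM with irinotecan and 201, 212, 211 and 210 CPM with the combination. The 8 libraries with irinotecan all lay below the 8 without it, and the combination libraries lay below those with irinotecan alone. ABCC3 fell by 0.36 ± 0.04 on the log2 scale with irinotecan (SE, edgeR adjusted p = 4.55e-09), to 0.781 of the DMSO level. With the combination it fell by 0.45 ± 0.04 (edgeR adjusted p = 3.01e-11), to 0.730 of that level. Against simvastatin alone the combination was lower by a log2 fold change of -0.39 ± 0.04 (edgeR adjusted p = 7.81e-10). Simvastatin against DMSO gave -0.06 ± 0.04 (edgeR adjusted p = 0.4), and the combination against irinotecan gave -0.10 ± 0.04 (edgeR adjusted p = 0.111), with a 95% interval of -0.17 to -0.02 before adjustment. In a bulk sample, fewer cells with a transcript and less of it per cell cannot be told apart.

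The summed level of the 9 glial and glioblastoma markers was also lower with irinotecan. Libraries with DMSO had 7257 to 7535 CPM and those with simvastatin 6990 to 7113 CPM. Irinotecan libraries had 5444 to 5595 CPM and combination libraries 5358 to 5519 CPM. CD44, VIM and NES carried most of the sum, with DMSO means of 3256, 1985 and 1160 CPM. These genes, GFAP, SOX2 and SOX9 were each called lower with irinotecan. S100B was not, at 4.74 ± 0.42 CPM with DMSO and 5.04 ± 0.30 with irinotecan (SD, n = 4), and AQP4 and OLIG2 were too low to test. With simvastatin alone, GFAP, SOX2 and CD44 were also called lower (log2 fold changes -0.19, -0.14 and -0.11, edgeR adjusted p = 0.0023, 0.0118 and 0.0412). VIM, NES, SOX9 and S100B were not called with simvastatin alone. The part of these markers in the ABCC3 result was not tested. Ratios of counts within a library do not depend on the scaling between libraries. The count ratio of ABCC3 to ABCC1 was 2.01 ± 0.18 with DMSO, 1.97 ± 0.14 with simvastatin, 1.61 ± 0.07 with irinotecan and 1.50 ± 0.04 in the combination (SD, n = 4). The 8 libraries with irinotecan had ratios of at most 1.69, and the 8 without it had at least 1.82.

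**Figure D2:**
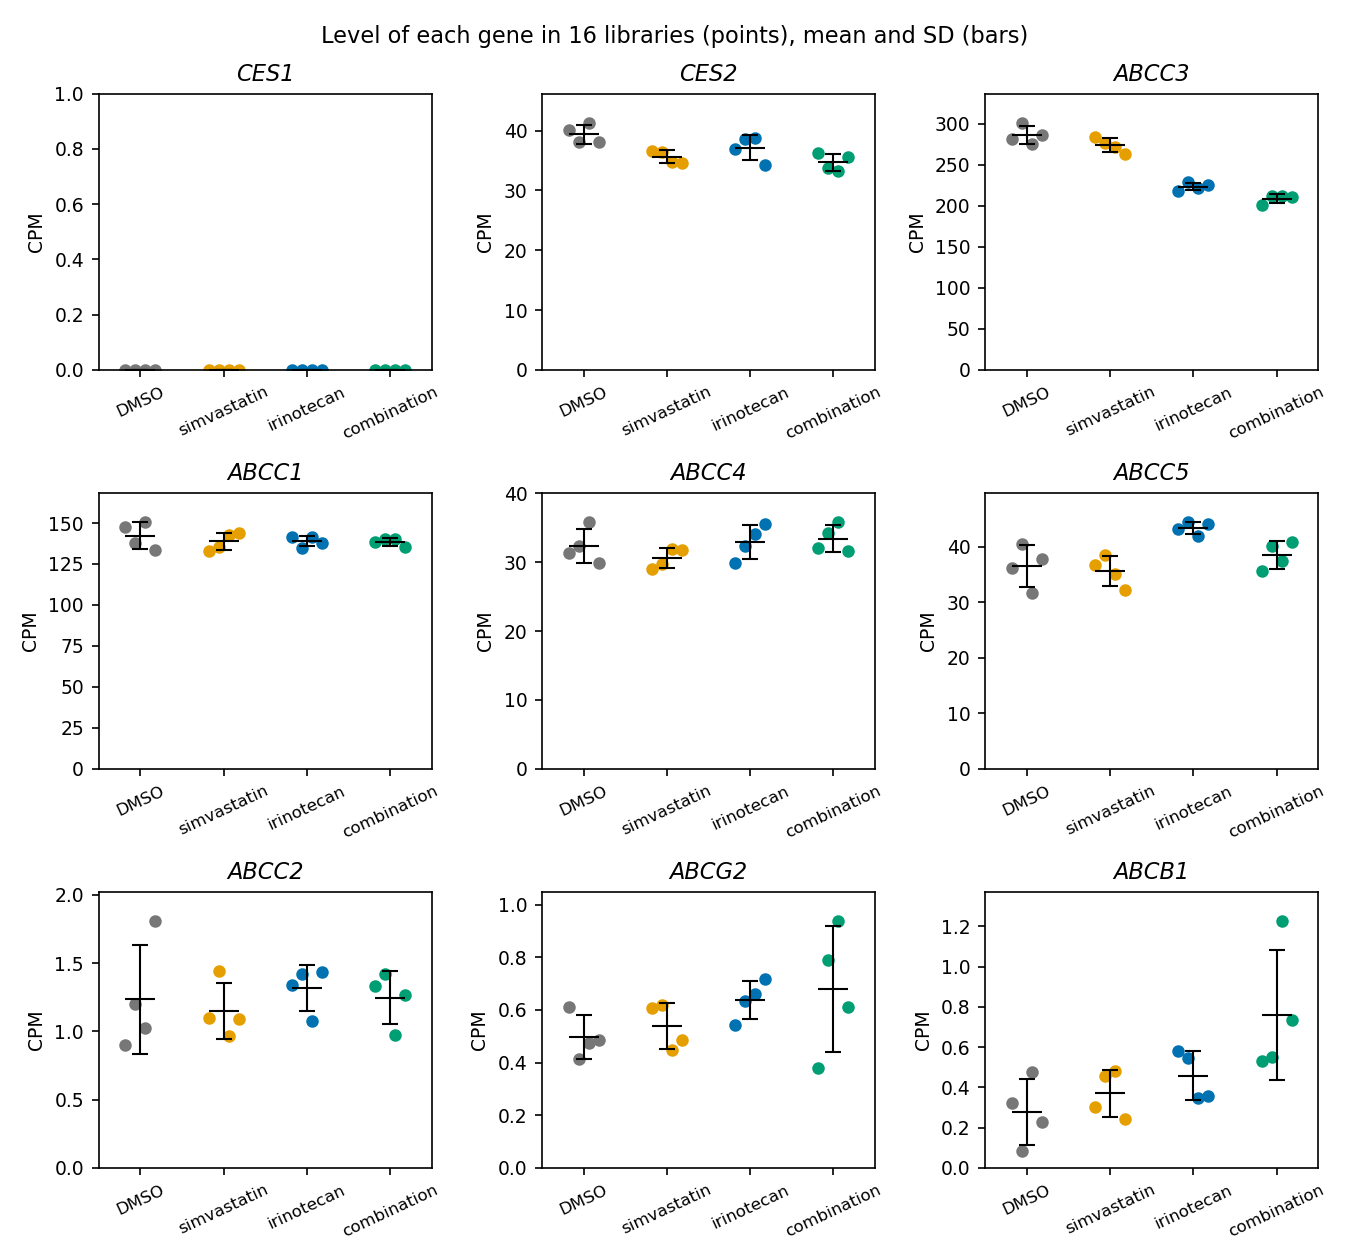
Level of each of the 9 genes in CPM (vertical axes from 0, each panel with its own range), 1 point per library, with the mean and SD of 4 libraries per group as bars. The ABCC3 libraries with irinotecan lie at 229 CPM or less and those without it at 263 CPM or more. CES1 is at 0 throughout.

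ABCC1 (MRP1, ENSG00000103222, chromosome 16, 15949577 to 16143074), a pump of glutathione conjugates and of many uncharged drugs, was the second highest pump per length. Its group means were 142 ± 8.0 CPM with DMSO, 139 ± 5.3 with simvastatin, 139 ± 3.2 with irinotecan and 139 ± 2.4 in the combination (SD, n = 4). The DMSO libraries, at 134 to 151 CPM, enclosed all combination libraries, at 135 to 140 CPM. The 95% intervals of its log2 fold change against DMSO were -0.12 to 0.05 for simvastatin, -0.12 to 0.05 for irinotecan and -0.12 to 0.04 for the combination. These intervals end short of the ABCC3 changes with irinotecan. ABCC1 was called in no comparison.

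ABCC5 (MRP5, ENSG00000114770, chromosome 3, 183919934 to 184018015), a pump of cyclic nucleotides and nucleotide analogues, rose with irinotecan alone. In replicates 1 to 4 its levels were 36.2, 40.5, 31.7 and 37.9 CPM with DMSO, and 36.7, 38.6, 35.1 and 32.2 CPM with simvastatin. They were 43.2, 44.4, 42.0 and 44.1 CPM with irinotecan, and 35.6, 40.2, 37.4 and 40.9 CPM with the combination. The 4 irinotecan libraries lay above all 12 others, and the combination libraries overlapped those of DMSO and simvastatin. The log2 fold change of irinotecan against DMSO was 0.25 ± 0.06 (SE, edgeR adjusted p = 0.00324), a fold of 1.19. With the combination against DMSO it was 0.07 ± 0.06 (95% interval -0.05 to 0.20, edgeR adjusted p = 0.416). The combination against irinotecan alone gave -0.17 ± 0.06, and this difference did not pass the threshold (edgeR adjusted p = 0.0998). It did pass with no filter on low counts (edgeR adjusted p = 0.0226) and with only these groups fitted (edgeR adjusted p = 0.0298). The antisense gene ABCC5-AS1 in this locus had 4 counts over all libraries.

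ABCC4 (MRP4, ENSG00000125257, chromosome 13, 95019829 to 95301475), a pump of cyclic nucleotides and prostaglandins, was called in no comparison. Its means were 32.3 ± 2.5 CPM with DMSO, 30.6 ± 1.5 with simvastatin, 32.9 ± 2.5 with irinotecan and 33.4 ± 1.9 in the combination (SD, n = 4). The combination against DMSO had a log2 fold change of 0.05 ± 0.06 (95% interval -0.07 to 0.18, edgeR adjusted p = 0.59). Against simvastatin alone it had 0.13 ± 0.06 (edgeR adjusted p = 0.133), and this difference passed the threshold with libraries scaled by their totals alone (edgeR adjusted p = 0.0282).

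ABCB1 (ENSG00000085563, chromosome 7, 87503633 to 87713323), P-glycoprotein, was hardly measured, and within that limit it rose with the combination. Its counts in replicates 1 to 4 were 9, 2, 12 and 7 with DMSO and 8, 11, 14 and 6 with simvastatin. They were 16, 18, 10 and 9 with irinotecan and 14, 14, 34 and 18 with the combination. In CPM the means were 0.277 ± 0.165 with DMSO, 0.370 ± 0.116 with simvastatin, 0.457 ± 0.121 with irinotecan and 0.761 ± 0.323 in the combination (SD, n = 4). All combination libraries, at 0.532 to 1.23 CPM, lay above all DMSO and simvastatin libraries, but 2 irinotecan libraries lay in the range of the combination. The log2 fold change of the combination against DMSO was 1.45 ± 0.39 (SE, 95% interval 0.65 to 2.25, edgeR adjusted p = 0.00522), a fold of 2.73. Combination replicate 3 had the highest level, and without it the log2 fold change was 1.11 (edgeR adjusted p = 0.0496).

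Against simvastatin alone, the ABCB1 level of the combination gave a log2 fold change of 1.03 ± 0.37 (SE, edgeR adjusted p = 0.0401). This call was lost with DESeq2 (adjusted p = 0.0641). In edgeR it was lost with no filter on low counts (adjusted p = 0.0514), with the 12 numbered libraries alone (adjusted p = 0.156), without simvastatin replicate 1, 2 or 4 (adjusted p = 0.104, 0.0514 and 0.113), and without combination replicate 3 or 4 (adjusted p = 0.233 and 0.0617), with a log2 fold change of 0.69 without combination replicate 3. Irinotecan against DMSO gave 0.72 ± 0.42 (edgeR adjusted p = 0.228), and simvastatin against DMSO gave 0.42 ± 0.44 (edgeR adjusted p = 0.715). The combination against irinotecan gave 0.73 ± 0.35 (edgeR adjusted p = 0.264). RUNDC3B, on the opposite strand within the ABCB1 locus, had 1 to 12 counts per library and no exon bases in common with it. The 5 brain endothelium markers summed to 0.952 to 1.26 CPM in DMSO libraries, 0.645 to 1.24 CPM in simvastatin libraries, 1.27 to 2.11 CPM in irinotecan libraries and 1.50 to 1.87 CPM in combination libraries. None of the 5 was at 0 in all libraries, and the list did not move as one. VWF, for von Willebrand factor, had 0.502 ± 0.161 CPM with DMSO and 1.24 ± 0.17 CPM in the combination (SD, n = 4), and was called higher with irinotecan and with the combination (log2 fold changes 0.87 ± 0.29 and 1.29 ± 0.28, edgeR adjusted p = 0.0281 and 0.000793). CLDN5, for the tight junction protein claudin-5, fell from 0.444 ± 0.082 to 0.151 ± 0.074 CPM in the combination (log2 fold change -1.50 ± 0.44, edgeR adjusted p = 0.00994). Both genes had few counts per library. VWF had 8 to 20 with DMSO and 27 to 38 in the combination, and CLDN5 had 10 to 15 and 2 to 7. The part of these markers in the ABCB1 result was not tested.

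ABCG2 (ENSG00000118777, chromosome 4, 88090264 to 88231322), a half-transporter that exports SN-38, was under 1 CPM in all 16 libraries, with 10 to 26 counts. Its means were 0.496 ± 0.083 CPM with DMSO, 0.539 ± 0.086 with simvastatin, 0.638 ± 0.073 with irinotecan and 0.679 ± 0.240 in the combination (SD, n = 4). The combination against DMSO had a log2 fold change of 0.45 ± 0.30 with a 95% interval of -0.16 to 1.06 (edgeR adjusted p = 0.283). No difference was detected, and with these few counts the interval was wide. ABCC2 (MRP2, ENSG00000023839, chromosome 10, 99782640 to 99852594), the bile canalicular pump, had 25 to 56 counts per library, and 3 libraries were under 1 CPM. Its means were 1.23 ± 0.40 CPM with DMSO, 1.15 ± 0.21 with simvastatin, 1.32 ± 0.17 with irinotecan and 1.25 ± 0.19 in the combination (SD, n = 4). Neither gene was called in any comparison.

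Read against all genes tested, the members were called about as often as genes at large. In what follows a gene is called at an edgeR adjusted p under 0.05 over the 16647 genes tested, and the comparisons against DMSO share the same DMSO libraries. Simvastatin against DMSO called 0 of 8 members, where 6.00% of all genes were called, 3.89% higher and 2.11% lower. At an unadjusted p under 0.05, 1 member passed, CES2, where 17.3% of all genes did, and with DESeq2 0 members were called. Irinotecan against DMSO called 1 member higher, ABCC5, and 1 lower, ABCC3, where 24.1% of all genes were called, 12.4% higher and 11.7% lower. The combination against DMSO called 1 member higher, ABCB1, and 2 lower, ABCC3 and CES2, where 28.1% of all genes were called, 15.1% higher and 13.0% lower. The median absolute log2 fold change of the 8 members was 0.17 with irinotecan and 0.13 with the combination, beside 0.13 and 0.15 for all genes tested.

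The combination against irinotecan asks what simvastatin adds, and it called 0 of 8 members, where 5.94% of all genes were called, 4.45% higher and 1.50% lower. At an unadjusted p under 0.05, 3 members passed, ABCC3, ABCC5 and ABCB1, where 18.6% of all genes did, and with DESeq2 0 members were called. The combination against simvastatin called 1 member higher, ABCB1, and 1 lower, ABCC3, where 25.6% of all genes were called, 13.9% higher and 11.7% lower. The interaction, which measures how far the combination lies from both drugs' log2 effects added up, called 0 of 8 members in edgeR, where 0.0120% of all genes were called. At an unadjusted p under 0.05 it had 0 members, beside 6.01% of all genes, and DESeq2 called 0 members. It was -0.04 ± 0.05 for ABCC3 (SE, edgeR adjusted p = 0.936), -0.14 ± 0.09 for ABCC5 (edgeR adjusted p = 0.871), 0.05 ± 0.07 for CES2 (edgeR adjusted p = 0.945) and 0.31 ± 0.57 for ABCB1 (edgeR adjusted p = 0.954). In the main fit, the ABCC5 level that was called with irinotecan and not with the combination was therefore not shown to depend on simvastatin. For ABCC5, the combination against irinotecan passed the threshold in some alternative fits, including that with the replicate number as a block.

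**Figure D3:**
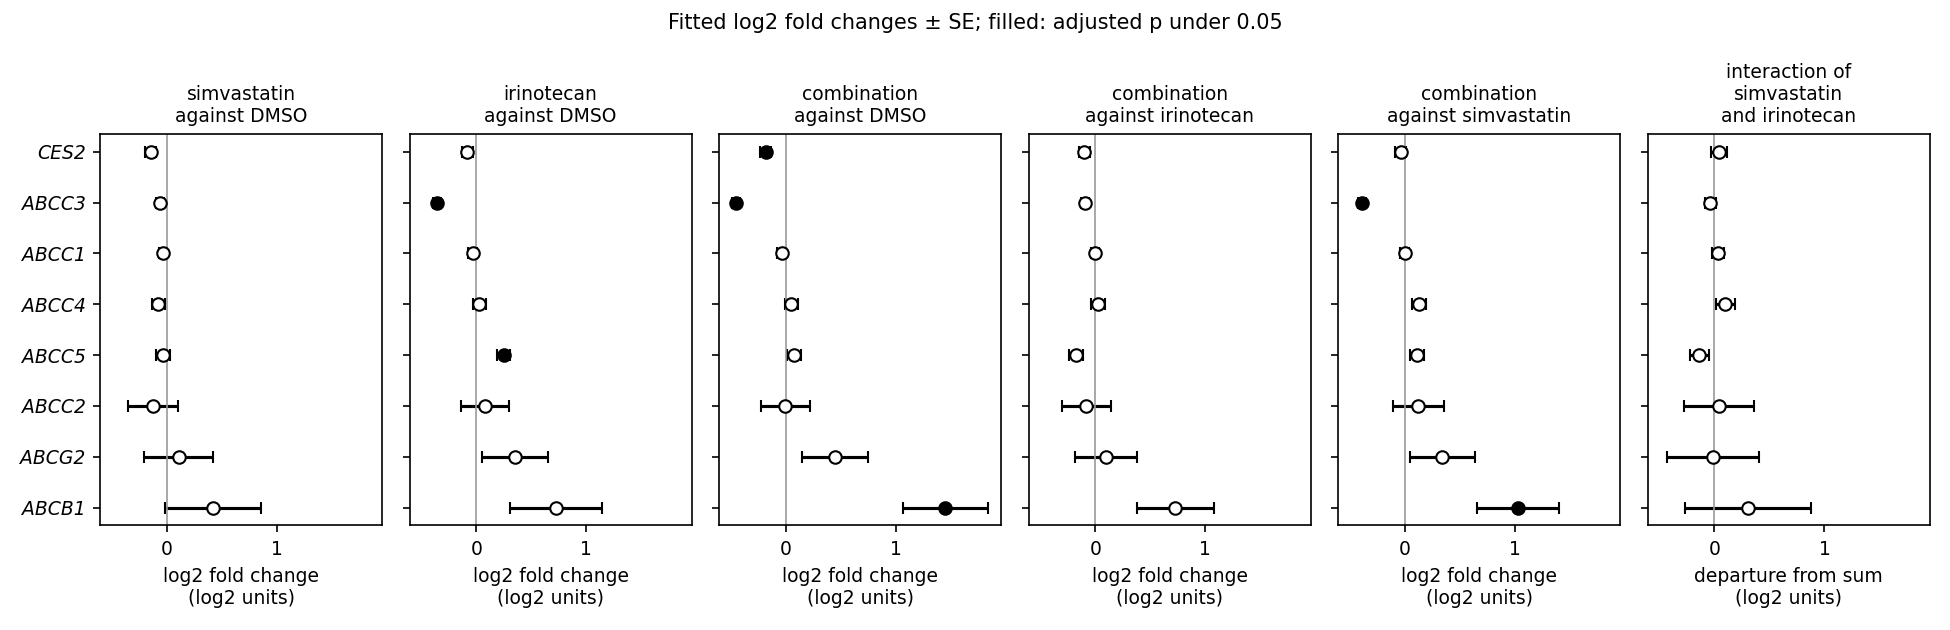
Fitted log2 fold changes (points) with their SE (bars) for 8 members in 6 comparisons, filled where the edgeR adjusted p is under 0.05. The 3 least abundant pumps, ABCC2, ABCG2 and ABCB1, have the widest bars, and no member is filled for simvastatin against DMSO, the combination against irinotecan or the interaction.

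The make-up of the 7 pumps shifted between groups as far as transcripts per length show it. Their summed level was 55.7 ± 1.0 CPM per kb with DMSO, 53.8 ± 0.4 with simvastatin, 49.5 ± 0.4 with irinotecan and 47.7 ± 1.0 in the combination (SD, n = 4). Libraries of the groups with irinotecan summed to at most 49.9 CPM per kb and those without it to at least 53.1. ABCC3 made up 53.3% of this sum with DMSO, 52.9% with simvastatin, 46.8% with irinotecan and 45.5% in the combination. ABCC1 made up 33.7%, 34.1%, 37.0% and 38.4% in the same order, with group means of 139 to 142 CPM. ABCB1 stayed at 0.274% or less of the sum in every group mean. These sums are descriptions with no test, and the amount of pump protein was not measured.

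Other genes of irinotecan handling were read from 9 lists with 64 genes, of which 42 were tested. Simvastatin against DMSO called 0 of the 42 higher and 4 lower, irinotecan 5 higher and 4 lower, and the combination 5 higher and 6 lower. Of all genes tested, 6.00%, 24.1% and 28.1% were called in these comparisons. The counts with irinotecan and with the combination lie near these shares. With simvastatin 3.89% of all genes were called higher and 2.11% lower, a split unlike that of the list. This difference was not tested. The combination against irinotecan called 1 higher and 3 lower, where 5.94% of all genes were called, 4.45% higher and 1.50% lower. Against simvastatin the combination called 6 higher and 5 lower, where 25.6% of all genes were called. The interaction called 0 (edgeR), with 4 at an unadjusted p under 0.05, which 6.01% of all genes passed, and 0 by DESeq2. The median log2 fold change of the 42 was -0.04 with simvastatin, 0.08 with irinotecan and 0.03 in the combination, beside -0.01, 0.00 and 0.00 for all genes tested.

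Of the membrane anchors, proteins that tie pumps and other membrane proteins to the actin cortex, 2 of 5 fell with simvastatin, 2 of 5 with irinotecan and 3 of 5 with the combination. Of all genes tested, 2.11%, 11.7% and 13.0% were called lower in these comparisons. EZR, which encodes ezrin, had 1088 ± 46 CPM with DMSO, 963 ± 13 with simvastatin, 791 ± 12 with irinotecan and 752 ± 18 in the combination (SD, n = 4). It fell by 0.18 ± 0.03 with simvastatin (edgeR adjusted p = 0.000597), by 0.46 ± 0.03 with irinotecan (edgeR adjusted p = 6.02e-12) and by 0.53 ± 0.03 with the combination (edgeR adjusted p = 2.04e-13) on the log2 scale. MSN, for the related protein moesin, fell by 0.27 ± 0.03 with irinotecan and by 0.24 ± 0.03 with the combination (edgeR adjusted p = 1.08e-07 and 6.91e-07). SLC9A3R1, for the scaffold NHERF1, fell by 0.17 ± 0.04 with simvastatin and by 0.19 ± 0.04 with the combination (edgeR adjusted p = 0.00586 and 0.000572). RDX, for radixin, and PDZK1 were not called in any comparison.

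Among 8 genes of uptake transporters, 6 were tested. SLCO2A1, a prostaglandin transporter, rose from 0.402 ± 0.063 CPM with DMSO to 0.965 ± 0.253 with irinotecan and 1.16 ± 0.26 with the combination (SD, n = 4). The log2 fold changes were 1.25 ± 0.29 and 1.51 ± 0.28 (SE, edgeR adjusted p = 0.00145 and 0.000125). With simvastatin its level was 0.727 ± 0.154 CPM, also with no overlap with the DMSO libraries, and the log2 fold change of 0.85 ± 0.30 was not called (edgeR adjusted p = 0.103). Only in the combination did the mean of SLCO2A1 reach 1 CPM. Its counts per library were 8 to 15 with DMSO and 22 to 39 with the combination, so it was hardly measured. SLCO4A1, a transporter of thyroid hormone and prostaglandins, fell with the combination, by 0.41 ± 0.06 against DMSO and by 0.33 ± 0.06 against irinotecan (edgeR adjusted p = 1.39e-06 and 0.000159). Its means were 49.2 ± 2.3 CPM with DMSO, 47.1 ± 3.8 with simvastatin, 46.7 ± 2.7 with irinotecan and 37.1 ± 1.8 in the combination (SD, n = 4). SLCO1B3, which takes up SN-38 in liver, was called in no comparison, at group means of 7.70 to 8.65 CPM.

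Among 11 regulators of transporter genes, 9 were tested. EPAS1, for the hypoxia factor HIF-2 alpha, rose from 11.9 ± 0.8 CPM with DMSO to 15.0 ± 1.1 with irinotecan and 19.3 ± 0.8 with the combination (SD, n = 4). Its log2 fold changes were 0.34 ± 0.07 with irinotecan, 0.70 ± 0.07 with the combination and 0.36 ± 0.07 for the combination against irinotecan (edgeR adjusted p = 0.000728, 6.2e-09 and 0.000753). HIF1A fell by 0.12 ± 0.04 with both irinotecan and the combination (edgeR adjusted p = 0.0201 and 0.0147), calls that scaling by library totals alone did not keep. Without DMSO replicate 4 its adjusted p in edgeR was 0.0808 and 0.0537, and the call with irinotecan was also lost without DMSO replicate 3 and without irinotecan replicate 2. NFE2L2, the oxidative stress factor NRF2, passed narrowly with the combination at 0.10 ± 0.04 (edgeR adjusted p = 0.0489). This call was lost in 17 of 24 alternatives, 12 of them with 1 library left out (adjusted p up to 0.13, without combination replicate 3). RXRB, a partner of nuclear receptors, was lower in the combination than with simvastatin, at -0.20 ± 0.07 (edgeR adjusted p = 0.0357), a call lost without any 1 of replicates 1, 2 and 3 of either group (adjusted p up to 0.132, without combination replicate 3). NR1I2, the xenobiotic receptor PXR, had 0 counts in every library, and AHR, the aryl hydrocarbon receptor, had at most 6.

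Of 9 glutathione transferase genes, GSTM3 rose by 0.31 ± 0.05 with irinotecan and 0.27 ± 0.05 with the combination on the log2 scale (edgeR adjusted p = 9.87e-06 and 5.54e-05). GSTA4 fell by 0.37 ± 0.07 and by 0.35 ± 0.07 (edgeR adjusted p = 0.000122 and 0.000223). GSTM4 fell by 0.22 ± 0.05 with simvastatin (edgeR adjusted p = 0.00814) and GSTK1 by 0.14 ± 0.04 (edgeR adjusted p = 0.0498), and both were also lower in the combination than with irinotecan, at -0.23 ± 0.05 and -0.18 ± 0.04 (edgeR adjusted p = 0.00545 and 0.00882). The GSTK1 call for simvastatin against DMSO was lost in 18 of 24 alternatives, 12 of them with 1 library left out (adjusted p up to 0.235, without DMSO replicate 4). The GSTM4 call for simvastatin was lost without DMSO replicate 1 (edgeR adjusted p = 0.0508). MGST2 was higher in the combination than with simvastatin, at 0.20 ± 0.06 (edgeR adjusted p = 0.0191), but not without simvastatin replicate 1 or combination replicate 1 or 2 (adjusted p up to 0.0903, without combination replicate 1). GSTP1 was called in no comparison. GSTM genes share sequence with each other, and counts between them are uncertain.

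Glucuronidation of SN-38 by UGT1A enzymes was barely open to measurement. The 9 UGT1A genes, which share exons, had at most 2 counts in a library each, and none was tested. GUSB, the lysosomal enzyme that reverses glucuronidation, rose by 0.13 ± 0.04 with irinotecan (edgeR adjusted p = 0.0345) and was higher in the combination than with simvastatin, at 0.12 ± 0.04 (edgeR adjusted p = 0.048). The first call was lost without DMSO replicate 1, 3 or 4 or irinotecan replicate 1 or 2 (adjusted p up to 0.162, without irinotecan replicate 1), and the other with any of 11 libraries left out (adjusted p up to 0.176, without combination replicate 2). CYP3A4, which oxidises irinotecan, had at most 1 count in a library. None of 4 other hydrolases tested and none of 5 other efflux pumps tested was called in any comparison, BCHE and ABCC10 among them.

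TOP1, the target of SN-38, had 178 ± 5.8 CPM with DMSO, 182 ± 9.4 with simvastatin, 190 ± 3.8 with irinotecan and 198 ± 7.0 in the combination (SD, n = 4). Its log2 fold changes against DMSO were 0.03 ± 0.04 with simvastatin (edgeR adjusted p = 0.798), 0.09 ± 0.04 with irinotecan (edgeR adjusted p = 0.0797) and 0.15 ± 0.04 with the combination (edgeR adjusted p = 0.00463). Against simvastatin alone, the combination was higher by 0.12 ± 0.04 (edgeR adjusted p = 0.0236), a call lost without simvastatin replicate 1 or 2 or combination replicate 1 or 3 (adjusted p up to 0.106, without simvastatin replicate 2). Against irinotecan the value was 0.05 ± 0.04 (edgeR adjusted p = 0.512). The interaction was 0.02 ± 0.05 (edgeR adjusted p = 0.963). The mitochondrial topoisomerase gene TOP1MT rose by 0.23 ± 0.07 with irinotecan (edgeR adjusted p = 0.0182) and was higher in the combination than with simvastatin, at 0.21 ± 0.07 (edgeR adjusted p = 0.0306). The first was lost without DMSO replicate 2 or 4 or irinotecan replicate 2 (adjusted p up to 0.0759, without irinotecan replicate 2). The other was lost without simvastatin replicate 1, 2 or 3 or combination replicate 1, 3 or 4 (adjusted p up to 0.103, without simvastatin replicate 2).

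**Figure D4:**
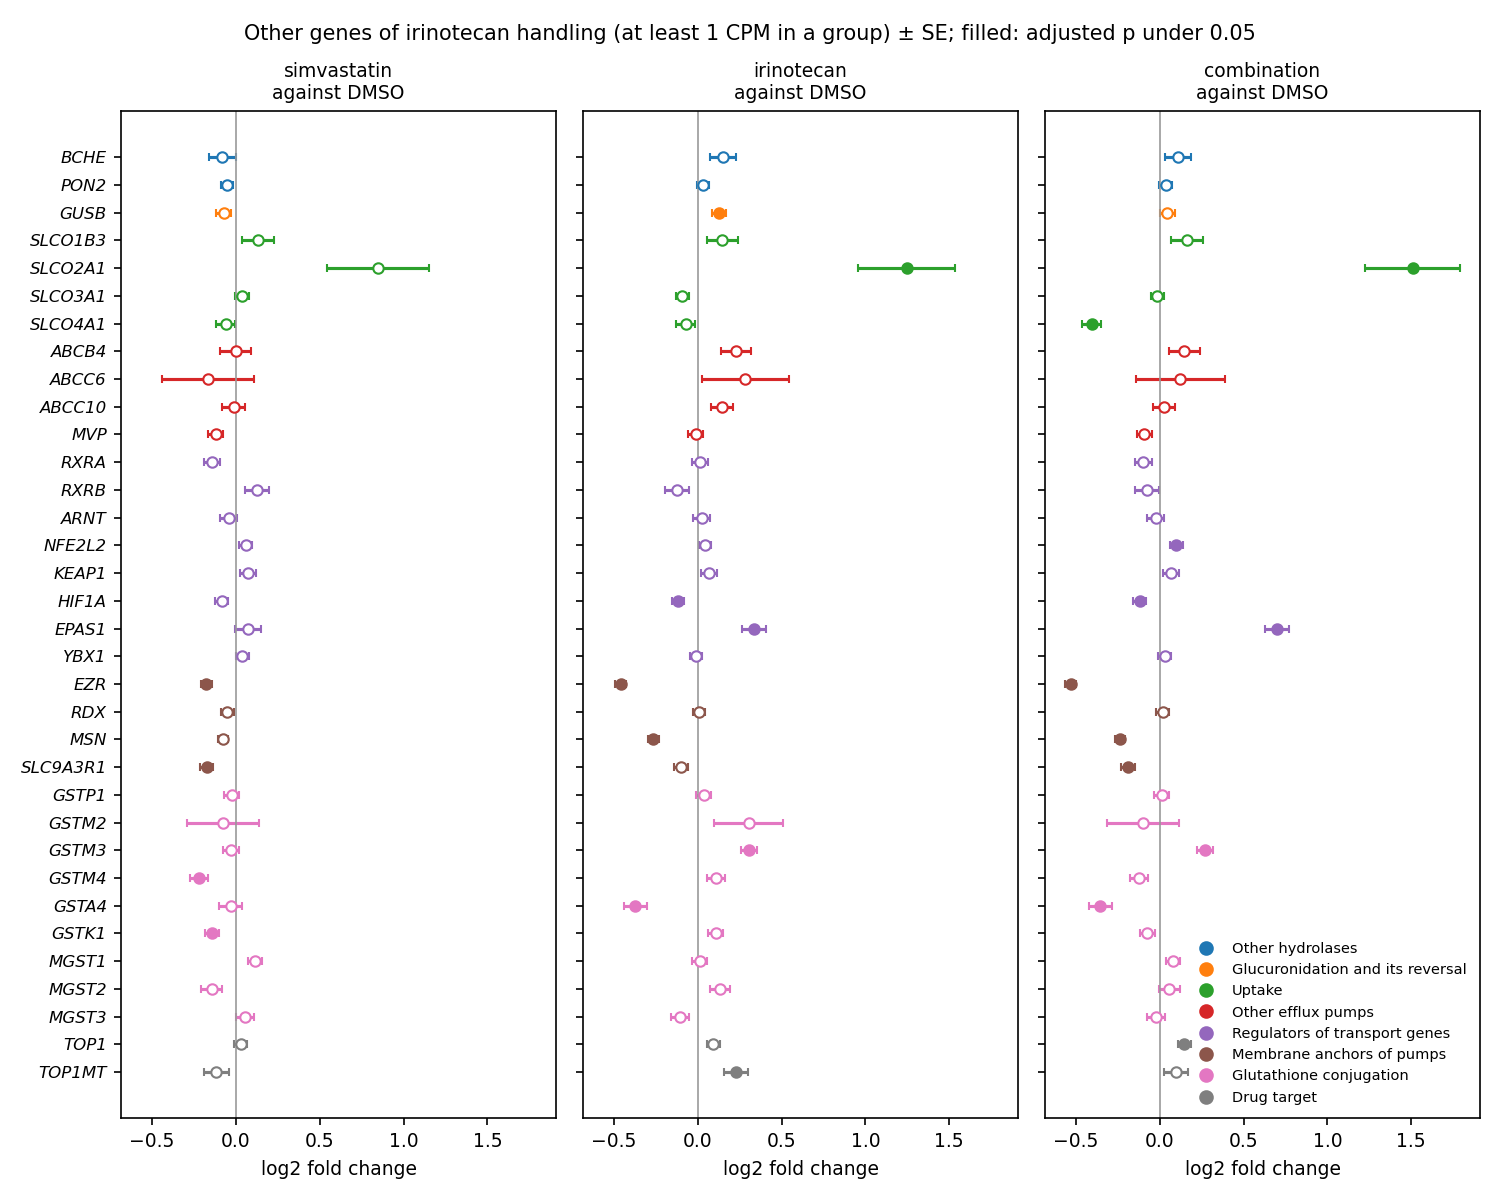
Fitted log2 fold changes (points) with their SE (bars) against DMSO for the 34 genes of irinotecan handling with a mean of at least 1 CPM in a group, coloured by list and filled where the edgeR adjusted p is under 0.05. The filled genes of the membrane anchor list, EZR, MSN and SLC9A3R1, lie below 0. SLCO2A1, which reached a mean of 1 CPM only in the combination, has the largest values drawn for irinotecan and the combination.

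For each member called in a comparison, the 2 genes with the most similar log2 CPM over the 16 libraries were listed by Pearson correlation, as a description over libraries that share treatments. ABCC3 was most like PLXNA4 (r = 0.99), a semaphorin receptor gene, and LEMD1 (r = 0.98). ABCC5 was most like GRHL1 (r = 0.93), a transcription factor gene, and the cadherin gene CDH24 (r = 0.92). CES2 was most like MCM2 (r = 0.88), a subunit of the replicative helicase, and PYGO2 (r = 0.88). ABCB1, with its few counts, was most like LONRF3 (r = 0.85) and NAP1L5 (r = 0.84).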

How the data were processed

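Poly(A) RNA of 16 U-251 MG libraries was sequenced as read pairs. The deposited table holds raw counts per gene, whole numbers that the authors had not normalised. The submitters' processing notes name FastQC, STAR 2.7.1, DESeq2 and the build GRCh38. How reads were counted, with which annotation and strand setting, is not given in the sources used here. Whether reads of genes on opposite strands were counted apart is therefore not known. Replicate numbers came from the titles. The unnumbered library of each group was called replicate 4 and pairs with none.

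Counts were fitted in R 4.3.3 with edgeR 4.0.16 (limma 3.58.1): filterByExpr with a minimum count of 10 and total of 15 kept 16647 genes, TMM factors scaled libraries, and robust quasi-likelihood models with 1 term per group gave two-sided F tests of 6 comparisons, adjusted by Benjamini-Hochberg over all genes tested and called under 0.05. Errors of log2 fold changes are SE from the F statistic, and 95% intervals are unadjusted. The common biological coefficient of variation was 5.25%. The test was tried on simulated data. Exon lengths and coordinates came from GENCODE 29 (GRCh38), which held 57980 of the 58243 IDs, and upstream sequence from RefSeq (GRCh38.p14). Pairs of libraries within a group differed by 2.47 to 13.9 chi-squared units per degree of freedom, above the value near 1 of a library counted again.

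The members, the lists and the comparisons were chosen with earlier results of these data known. Named were all 9 members, genes of the lists called in at least 1 comparison, TOP1, and the 2 genes most like each called member (prior count 2, mean log2 CPM of at least 1, no clone names). Other list genes named without a call were chosen after their values were seen. Alternatives were DESeq2 1.42.0, median-ratio factors, library totals alone, no filter, a threshold of 0.01, only the groups compared, the 12 numbered libraries with and without the number as a block, and leaving out each library. Python 3.11.15 with matplotlib 3.10.9 drew the figures.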

Additional observations from a re-analysis of the deposited data

Results flagged for a closer look

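One level stood apart from the others of its group. TOP1MT, the mitochondrial topoisomerase gene, had 20.4 CPM in simvastatin replicate 4 and 16.1 to 16.7 CPM in the other simvastatin libraries. The gap was a share of 0.848 of the range of the group, above the 0.829 that Dixon's test allows for 4 values. Of 76 groups of values tested in this way 1 passed, while chance gives about 1 in 20.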

How the results depend on the processing

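Of 7 calls of members, 5 held in all 24 alternatives, among them both ABCC3 calls against DMSO, ABCC5 with irinotecan (adjusted p at most 0.0218) and ABCB1 with the combination (adjusted p at most 0.0496). CES2 with the combination was lost with library totals alone, and ABCB1 in the combination against simvastatin was lost in 10, the replicate block among them (adjusted p = 0.116). Of 39 calls of other list genes, 27 held in all alternatives. The list genes called with irinotecan were 9 with TMM, 18 with library totals alone and 14 with the replicate block. With simvastatin they were 4, and 2 with the 12 numbered libraries alone or without DMSO replicate 1. For the combination against simvastatin they were 11, and 6 at a threshold of 0.01 or without simvastatin or combination replicate 1. For the combination against irinotecan, 1 member, ABCC5, was called with no filter, with only the groups compared and with the replicate block (adjusted p = 0.0102). For the combination against simvastatin 1 member was called with DESeq2, with no filter, at a threshold of 0.01 and with the 12 numbered libraries alone, and 1 to 2 with a library left out. Same-numbered libraries correlated weakly in their deviations from group means (r from -0.065 to 0.20 over 18 pairs, median 0.056). Libraries with different numbers had r from -0.16 to 0.098 over 36 pairs, with a median of -0.032. The same-numbered pairs thus lay somewhat higher, with overlapping ranges. The numbers were not taken as pairs in the main fit, though these values do not exclude a pairing. With the replicate block, fitted on the 12 numbered libraries, the combination against irinotecan called 2016 genes and the interaction 190. The main fit of all 16 libraries, without the block, called 989 and 2. These fits differ in their libraries as well as in the block. For the interaction, the same 12 libraries without the block called 1 gene, so the rise to 190 came with the block.

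At a threshold of 0.01, the number of all genes called was 558 for simvastatin, 2587 for irinotecan and 3032 for the combination against DMSO, 529 for the combination against irinotecan, 2681 against simvastatin and 0 for the interaction. With the 12 numbered libraries alone simvastatin called 513 and the interaction 1. The interaction called 4 genes with DESeq2, 14 with no filter and 0 to 9 with a library left out (9 without simvastatin replicate 3), and simvastatin called 664 (without simvastatin replicate 4) to 1224 (without simvastatin replicate 3). With library totals alone the share of calls that were higher was 77.8% for irinotecan, 73.4% for the combination against DMSO, 62.9% against irinotecan and 73.4% against simvastatin, where TMM gave 51.4%, 53.8%, 74.8% and 54.1%.

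Some log2 fold changes near 0 changed sign and were called in no setting. With library totals alone they were 0.041 for ABCC1 with irinotecan, 0.020 for ABCC1 with the combination and 0.015 for CES2 in the combination against simvastatin. ABCC5 with simvastatin was 0.030 with the replicate block, 0.026 with the 12 numbered libraries alone and -0.10 to 0.014 with a library left out. The CES2 interaction was -0.0013 with the replicate block and -0.00056 with the 12 numbered libraries alone, the ABCB1 interaction was -0.047 to 0.58 with a library left out, and TOP1 with simvastatin was -0.0016 to 0.052. Of 424 further values of ABCC1, ABCC2, ABCC4 and ABCG2, 46 changed sign and 0 were called. Without TMM factors, 29 of 32 group levels moved by less than their SD. The other 3, all with irinotecan, were ABCC3 (229 CPM), ABCC5 (44.6 CPM) and ABCC1 (143 CPM). The counts of ABCB1, ABCG2 and ABCC2 limit what could be seen of them.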
